A study of Mus musculus with 4 samples.

Results

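Cholinergic transmission genes were followed in cervical motor neurons (MNs) differentiated from mouse embryonic stem cells (mESCs) with and without PATZ1, a zinc finger protein that binds G-rich DNA. The genes were chosen by symbol for their role in making, storing and clearing acetylcholine: *Chat*, *Slc18a3*, *Slc5a7*, *Slc10a4*, *Ache*, *Bche* and *Prima1*, which are 7 of the 23420 gene symbols in the count data. All 7 symbols were found, and all 7 passed the filter on low counts. The WT group was 2 libraries from E14 cells, an mESC line, and the *Patz1* KO group was 2 libraries from E14 cells edited at *Patz1* (genotype Patz1 -/-). Both groups went through the same differentiation, in which embryoid bodies received 1 µM retinoic acid and 0.5 µM smoothened agonist on day 2. The sample titles name ESCs, but the source and cell type labels name MNs, and the libraries were taken as MNs. The KO cells came from a Cas9 guide and single-cell cloning of several lines, and the labels do not tell which line or lines gave these libraries, so an effect of the line and an effect of the genotype cannot be told apart. The MNs were not sorted, and each library was total RNA of a whole culture after removal of ribosomal RNA.

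MNs are the neurons that drive muscle, and acetylcholine is their transmitter. The nerve ending takes up choline through the transporter encoded by *Slc5a7*, choline acetyltransferase (*Chat*) joins it to acetyl-CoA, and the vesicular transporter VAChT (*Slc18a3*) loads the product into vesicles. After release, acetylcholinesterase (*Ache*) splits acetylcholine within the synapse, held in neuronal membranes by the anchor protein PRiMA (*Prima1*), while butyrylcholinesterase (*Bche*) splits a wider range of choline esters and is also made outside neurons. *Slc10a4* encodes an orphan vesicle protein of cholinergic and monoaminergic neurons. In MNs, LIM homeodomain factors such as ISL1 and LHX3 switch several of these genes on together.

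The total count per library went from 14769104 to 23881522, and a count of 3 in a library equals 0.124 to 0.201 CPM (counts relative to the library size after TMM scaling). *Patz1* itself was lower in the KO libraries, at 47.6 and 42.5 CPM against 91.4 and 94.2 in WT (log2 fold change -1.04, SE 0.095, adjusted p = 1.09e-07 in the edgeR quasi-likelihood (QL) test, Benjamini-Hochberg adjusted over all 14269 genes tested). The libraries held the RNA of MNs: *Isl1*, *Lhx3* and *Mnx1*, which define the cell type, had between 51.3 and 163 CPM as group means. Of muscle, which also makes esterases and receptors, the defining gene *Myod1* had 0 to 2 counts per library, while the embryonic myosin gene *Myh3* had 51 and 41 counts in WT against 23 and 16 in KO (log2 fold change -1.65). Of all genes tested, 47.9% were called at an adjusted p below 0.05, 24.1% of them as higher in *Patz1* KO MNs and 23.8% as lower (percentages of all genes tested), so that a single call says little here. By the study's methods, replicates stand for separate rounds of differentiation. The p values rest on the spread between these libraries, moderated for each gene toward the trend over all genes tested.

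Of the 7 cholinergic genes, 6 were higher in *Patz1* KO MNs and 1, *Bche*, was lower, against the 24.1% and 23.8% of all genes tested. Their log2 fold changes went from -0.52 to 1.26 with a median of 0.75, where the median of all genes tested was -0.0014. A call with a log2 fold change of at least 0.5 was made for 5 of the 7 (*Ache*, *Prima1*, *Chat*, *Slc5a7* and *Slc18a3*) and for 15.2% of all genes tested. In all 7, both KO libraries lay on one side of both WT libraries, 6 above and 1 below, as did 74.2% of all genes tested (37.0% above, 37.2% below). With whole cultures as samples, a larger share of MNs and more RNA of these genes per MN cannot be told apart.

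**Figure D1:**
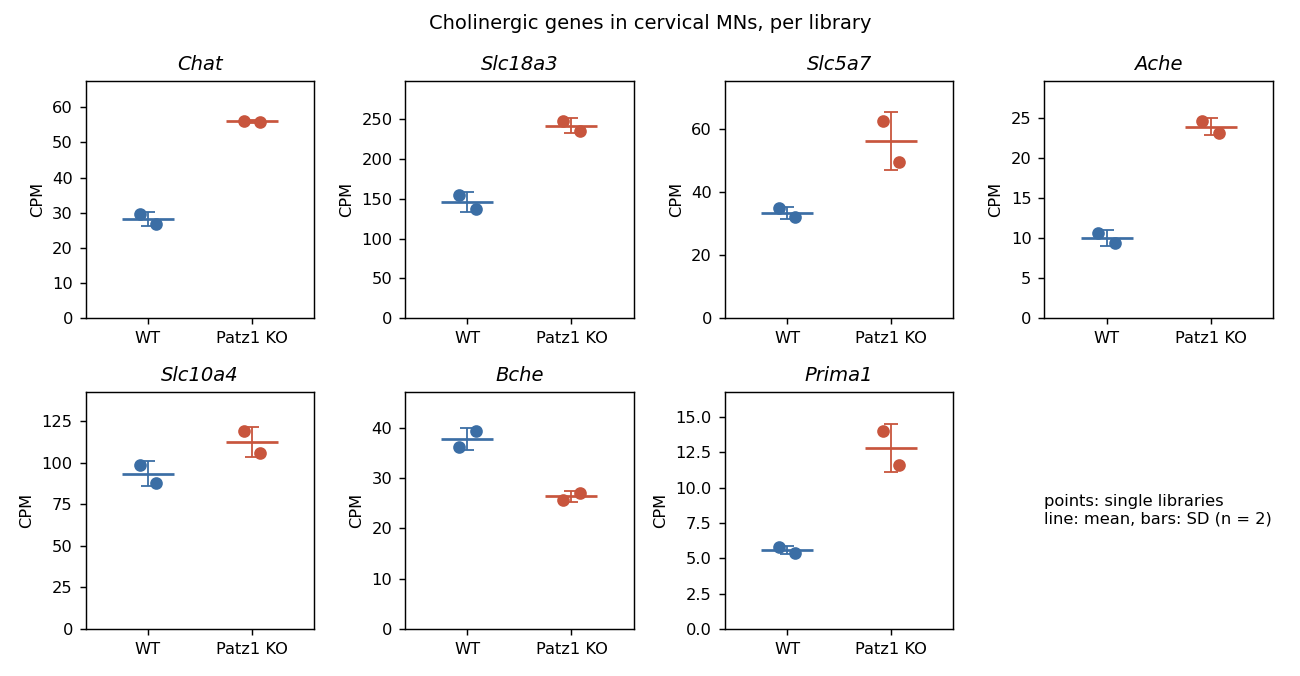
CPM of the 7 cholinergic genes in each of the 2 WT (blue) and 2 *Patz1* KO (red) libraries, with the group mean as a line and the SD as bars; each axis starts at 0. The *Patz1* KO points lie above the WT points in 6 panels and below them for *Bche*.

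*Chat*, the enzyme that makes acetylcholine, took a far larger share of the counts in *Patz1* KO MNs. WT counts were 439 and 427 (29.5 and 26.8 CPM), KO counts 1363 and 934 (56.2 and 55.7 CPM). The groups were far apart and the KO libraries nearly equal, with 28.1 ± 1.85 CPM in WT and 55.9 ± 0.38 in *Patz1* KO (SD, n = 2 each). The fold was 1.99, with a 95% interval from 1.72 to 2.3 (log2 fold change 0.99, SE 0.10, adjusted p = 3.4e-07, edgeR QL test). Of all genes tested, 5.95% had a larger rise.

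*Slc18a3*, which fills the vesicles, was the most abundant of the 7 genes in both genotypes. WT counts were 2306 and 2182 (155 and 137 CPM), KO counts 6019 and 3938 (248 and 235 CPM). The groups did not overlap, and the fold was 1.65 with a 95% interval from 1.45 to 1.89 (log2 fold change 0.73, SE 0.091, adjusted p = 3.96e-06, edgeR QL test). *Slc18a3* and *Chat* form 1 locus on chromosome 14 of GRCm38 (mm10), both on the minus strand. *Chat* spans chr14:32408203-32465989, and *Slc18a3* (chr14:32462438-32464850) is a gene of 1 exon that lies whole inside it, 1139 bases past the start of *Chat*. Of the 8 annotated *Chat* transcripts, 4 start before *Slc18a3* and carry it in their first intron. The exons of both genes share 0 bases, so that no spliced *Chat* read counts for *Slc18a3*. Unspliced *Chat* RNA from the upstream start holds the *Slc18a3* sequence on the same strand, however, and its reads cannot be told from those of *Slc18a3*. The same RNA could add to both genes, and how much it did was not tested. The antisense gene *Gm2990* overlaps the span of *Chat* but none of its exons.

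**Figure D2:**
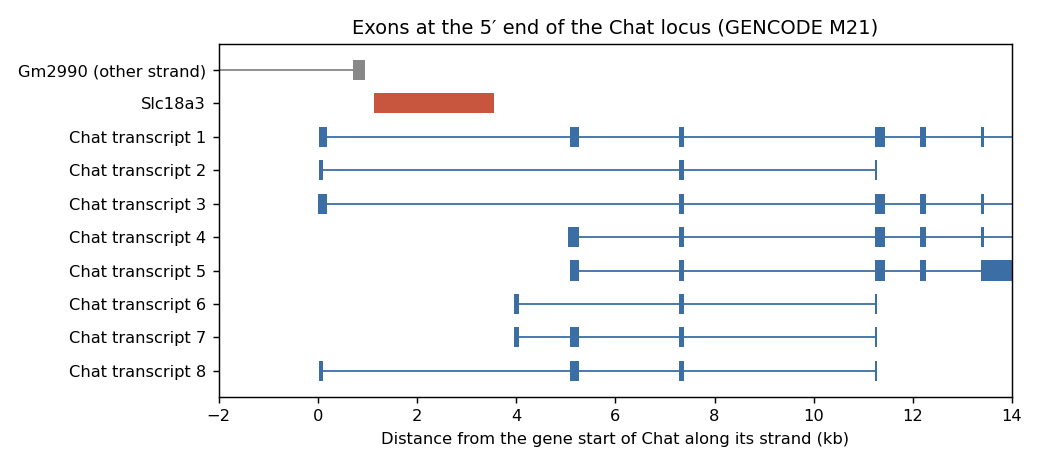
Exons (boxes) and introns (lines) of the 8 annotated *Chat* transcripts (blue), of *Slc18a3* (red) and of *Gm2990* (grey, other strand), against the distance from the gene start of *Chat* in kb, for the 5′ end of the locus. *Slc18a3* sits in the first intron of the 4 *Chat* transcripts that start before it, and the other 4 start after it.

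Both genes of the locus rose, but not in equal measure. There were 5.25 and 5.11 counts of *Slc18a3* for each count of *Chat* in the WT libraries, and 4.42 and 4.22 in *Patz1* KO. The ratio was lower in both KO libraries, so *Chat* rose somewhat more than *Slc18a3*; the smallest two-sided p that exact permutation of 4 libraries allows is 0.333, and no such test was run. The 250 bases before each start (RefSeq, GRCm38.p6, minus strand, chr14:32465910-32466159 for *Chat* and chr14:32464851-32465100 for *Slc18a3*) are shown because both genes rose from separate starts of 1 locus. The *Chat* window runs into the *Chat* span given above, which rests on another annotation (GENCODE). Capitals mark every match, on either strand, to GGGNGGGG (a G-rich box of the kind MAZ and PATZ1 bind), GGGCGG (the GC box, which can overlap the G-rich box), CAGCTG (an E-box), TAATTA (a LIM homeodomain core) and TGACGTCA (the CRE).

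Chat: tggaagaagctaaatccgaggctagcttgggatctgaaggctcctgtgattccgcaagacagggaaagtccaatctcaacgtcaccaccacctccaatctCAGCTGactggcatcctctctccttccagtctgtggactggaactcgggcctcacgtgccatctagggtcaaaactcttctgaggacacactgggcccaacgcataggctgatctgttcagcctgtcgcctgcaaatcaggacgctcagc
Slc18a3: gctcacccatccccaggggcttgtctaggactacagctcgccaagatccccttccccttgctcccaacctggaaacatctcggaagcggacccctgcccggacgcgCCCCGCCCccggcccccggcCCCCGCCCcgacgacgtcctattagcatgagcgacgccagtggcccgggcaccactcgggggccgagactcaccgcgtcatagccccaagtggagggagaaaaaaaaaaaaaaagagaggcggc

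The *Chat* window held 1 CAGCTG, a word found in 13.0% of all 32851 promoter windows of this length, and no G-rich box. The *Slc18a3* window held 2 copies of GGGNGGGG, both on the other strand and each covering a GC box, at -144 to -137 and -124 to -117 from the start. Of all windows, 30.8% held GGGNGGGG and 32.7% held GGGCGG. The windows differed in base composition as well, with 54.8% G and C for *Chat* and 66.0% for *Slc18a3*, against a median of 52.4% over all windows. These are matches of letters only, and binding was not measured here.

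*Slc5a7*, the choline transporter that feeds the synthesis, rose by about as much as *Slc18a3* but less evenly. It lies on chr17:54273590-54299034, and no other annotated gene overlaps it. WT counts were 518 and 510 (34.8 and 32.1 CPM), KO counts 1518 and 830 (62.6 and 49.5 CPM). The KO libraries differed from each other by more than the WT libraries did, and both lay above them. The fold was 1.68 with a 95% interval from 1.42 to 1.99 (log2 fold change 0.75, SE 0.11, adjusted p = 3.58e-05, edgeR QL test). Its log2 fold change was 0.57 without the first and 0.91 without the second *Patz1* KO library.

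*Slc10a4*, the orphan vesicle protein, moved least. It lies on chr5:73006883-73012955, and WT counts were 1469 and 1400 (98.6 and 88 CPM), KO counts 2887 and 1774 (119 and 106 CPM). The lower KO library lay just above the higher WT library. The log2 fold change of 0.27 (SE 0.094, adjusted p = 0.0247, edgeR QL test) was a call that did not hold: it was lost without the first WT library (0.35, adjusted p = 0.0503), without the second (0.20, adjusted p = 0.331) and without the first KO library (0.19, adjusted p = 0.0726), and DESeq2's Wald test gave an adjusted p of 0.0548. The 95% interval of the fold went from 1.05 to 1.38. Of the 13 alternatives, 7 called it.

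The genes that clear acetylcholine split. *Ache* had the largest rise of the 7 genes, with WT counts of 160 and 149 (10.7 and 9.36 CPM) and KO counts of 600 and 390 (24.7 and 23.2 CPM). Each KO library had more than 2 times the CPM of either WT library. The fold was 2.39 with a 95% interval from 1.97 to 2.91 (log2 fold change 1.26, SE 0.13, adjusted p = 6.78e-07, edgeR QL test), and 3.45% of all genes tested rose more. *Ache* lies on chr5:137287519-137294466, where its exons overlap *Gm42456* on the other strand. The strand setting of the counting is not given in the sources used here, and reads of this pair could be mixed.

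*Prima1*, the membrane anchor of acetylcholinesterase, rose alongside it. It lies on chr12:103196908-103242150, with no overlapping gene, and was the least counted of the 7 genes, with 86 in each WT library (5.77 and 5.41 CPM) against 340 and 194 in the KO libraries (14 and 11.6 CPM). The KO libraries spread more than the WT libraries, and the groups did not overlap. The fold was 2.3 with a 95% interval from 1.78 to 2.98 (log2 fold change 1.2, SE 0.18, adjusted p = 2.37e-05, edgeR QL test). The proportion of enzyme to anchor overlapped between genotypes, with 1.86 and 1.73 counts of *Ache* for each count of *Prima1* in WT against 1.76 and 2.01 in *Patz1* KO.

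*Bche*, the second esterase, fell. It lies on chr3:73635808-73708415, with no overlapping gene, and WT counts were 540 and 626 (36.2 and 39.3 CPM), KO counts 622 and 455 (25.6 and 27.1 CPM). Both KO libraries lay below both WT libraries in CPM, although their raw counts overlapped because the KO libraries were deeper. The log2 fold change was -0.52 (SE 0.11, adjusted p = 0.000563, edgeR QL test), and the 95% interval of the fold went from 0.598 to 0.813. There were 0.296 and 0.238 counts of *Ache* for each count of *Bche* in WT against 0.965 and 0.857 in *Patz1* KO. These are raw counts, and the *Bche* transcript is longer (6210 against 2186 bases). In CPM per kb of transcript, *Ache* was below *Bche* in WT (4.60 against 6.08) and above it in *Patz1* KO (11 against 4.25).

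The starts of the 2 esterase genes are shown because the genes moved in opposite directions (250 bases each, RefSeq, GRCm38.p6: *Ache* at chr5:137288004-137288253 on the plus strand and *Bche* at chr3:73708416-73708665 on the minus strand, with capitals as above). The *Ache* window lies inside the *Ache* span given above, which rests on another annotation (GENCODE) with 9 transcripts of the gene.

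Ache: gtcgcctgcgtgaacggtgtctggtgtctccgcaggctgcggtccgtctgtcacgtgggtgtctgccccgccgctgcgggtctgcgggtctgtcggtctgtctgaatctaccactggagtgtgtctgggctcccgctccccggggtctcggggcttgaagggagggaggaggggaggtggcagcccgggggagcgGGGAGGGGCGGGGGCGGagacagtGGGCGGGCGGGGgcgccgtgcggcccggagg
Bche: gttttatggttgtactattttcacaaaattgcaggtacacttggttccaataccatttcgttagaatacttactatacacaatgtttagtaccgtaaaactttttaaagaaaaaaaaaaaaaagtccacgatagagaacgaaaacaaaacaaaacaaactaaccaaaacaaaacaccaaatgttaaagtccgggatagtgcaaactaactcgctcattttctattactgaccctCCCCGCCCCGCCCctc

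Both windows held the G-rich box, 3 copies before *Ache* and 2 before *Bche*, all of them overlapping a GC box and lying close to the start, between -55 and -20 for *Ache* and between -16 and -4 for *Bche*. The window of *Ache* was 73.6% G and C and that of *Bche* 35.6%. Of the other genes, *Prima1* and *Slc10a4* had 1 G-rich box each and *Slc5a7* had 0. Genes with the box rose (*Slc18a3*, *Ache*, *Prima1*), fell (*Bche*) or had a call that did not hold (*Slc10a4*), and genes without it rose (*Chat*, *Slc5a7*). None of the 7 windows held TAATTA, which 4.84% of all windows hold, or TGACGTCA, which 1.55% hold.

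**Figure D3:**
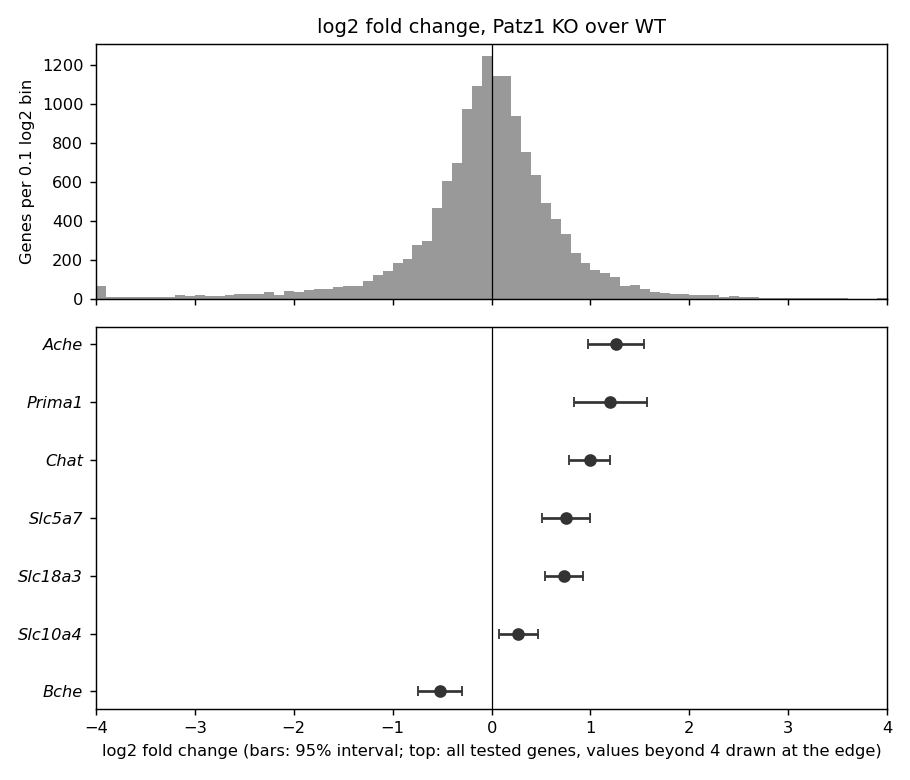
Distribution of the log2 fold change (*Patz1* KO over WT) over the 14269 genes tested, in bins of 0.1 (top), and the 7 cholinergic genes on the same axis with 95% intervals (bottom). *Ache*, *Prima1* and *Chat* lie in the upper flank of the distribution, *Slc10a4* is near its centre and *Bche* is on the lower side.

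Per length of transcript, the order of the genes was not that of their counts. In CPM per kb of the longest transcript paired with RefSeq, *Slc18a3* had a level of 60.5 ± 5.15 in WT and 100 ± 3.95 in *Patz1* KO (SD, n = 2 each), and *Slc10a4* came next with 44.3 ± 3.55 and 53.4 ± 4.47. *Chat* followed them in both genotypes, at 9.85 ± 0.647 and 19.6 ± 0.133 CPM per kb. The remaining 4 genes lay close together in WT, from 4.60 ± 0.443 (*Ache*) to 6.45 ± 0.368 (*Slc5a7*), and there *Slc5a7*, *Prima1* and *Bche* differed by no more than the spread between libraries. In *Patz1* KO, *Bche* had the lowest level of the 7 genes at 4.25 ± 0.167 CPM per kb, while *Prima1* was at 14.1 ± 1.91, and *Ache* at 11 ± 0.484 and *Slc5a7* at 10.8 ± 1.79 could not be ordered. With all annotated exons as the length, the first 3 places were the same in both genotypes, but the lower places changed. In *Patz1* KO, *Ache* was then at 5.19 CPM per kb, below *Slc5a7* at 9.93 and *Prima1* at 10.2.

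Many, but not all, markers of neurons in general also rose. Of the 20 pan-neuronal markers, 12 were higher, 1 was lower and 7 were not called, with a median log2 fold change of 0.38. That is 60.0% higher and 5.0% lower, against 24.1% and 23.8% of all genes tested. The 7 markers not called had log2 fold changes between -0.07 and 0.19. *Dcx*, a microtubule protein of young neurons, rose by 1.01, and the vesicle protein *Syp* by 0.85 and the endosomal protein *Nsg2* by 0.86. *Snap25*, a part of the release machinery, was the 1 marker that fell (-0.29), a call lost with DESeq2's Wald test and without either WT library. The summed level of the list was 7021 and 6612 CPM in WT and 9431 and 9028 in *Patz1* KO. Much of this sum and of its rise came from *Tubb3* and *Dcx*. Their group means were 1670 and 830 CPM in WT and 2420 and 1680 CPM in *Patz1* KO. Without the second WT library, 7 of the 20 markers were called in place of 13.

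The cholinergic genes were therefore also set against this list. *Chat* had 4.20 and 4.06 counts per 1000 pan-neuronal counts in WT against 5.96 and 6.16 in *Patz1* KO, and *Ache* had 1.53 and 1.42 against 2.62 and 2.57. *Slc18a3* went from 22 and 20.7 to 26.3 and 26, and *Prima1* from 0.822 and 0.817 to 1.49 and 1.28. *Slc5a7* came closest to an overlap among the genes that rose, with 4.95 and 4.85 against 6.64 and 5.48. On this scale *Slc10a4* lay lower in *Patz1* KO (12.6 and 11.7 against 14 and 13.3), and *Bche* went from 5.16 and 5.95 to 2.72 and 3.00. A fit with TMM computed on the pan-neuronal list alone, a scaling under which the median of all genes tested was -0.31, gave log2 fold changes of 0.68 for *Chat* (adjusted p = 5.79e-08), 0.42 for *Slc18a3* (0.000172), 0.44 for *Slc5a7* (0.00034), 0.95 for *Ache* (9.24e-09) and 0.89 for *Prima1* (1.58e-05). *Slc10a4* then stood at -0.04 (adjusted p = 0.77) and *Bche* at -0.83 (6.25e-10), all from the edgeR QL test. Relative to that median, *Slc10a4* was at 0.27 and *Chat* at 0.99, as in the main fit, because the subtraction undoes the change of scaling. The pan-neuronal scaling also turned the split of calls over all genes from 3445 higher and 3392 lower to 1687 higher and 6965 lower.

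**Figure D4:**
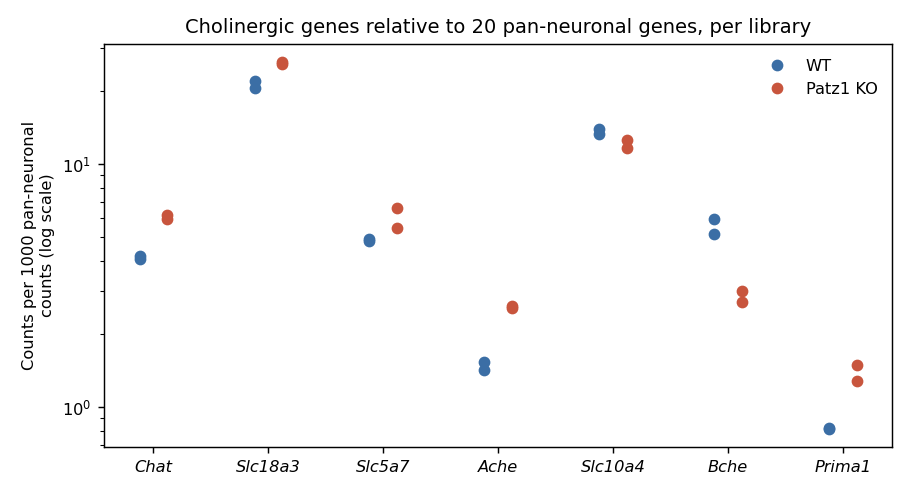
Counts of each cholinergic gene per 1000 counts of the 20 pan-neuronal markers in each WT (blue) and *Patz1* KO (red) library, on a log scale. *Chat*, *Slc18a3*, *Slc5a7*, *Ache* and *Prima1* lie higher in *Patz1* KO, *Slc10a4* and *Bche* lower.

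Factors that control cholinergic genes went both ways. Of 20 such genes tested, 5 were higher, 6 lower and 9 not called (25% higher and 30% lower, near the 24.1% and 23.8% of all genes tested), with a median log2 fold change of -0.08. *Mnx1*, a homeodomain factor of MNs, had WT counts of 774 and 805 and KO counts of 2383 and 1525 (log2 fold change 0.88, adjusted p = 5.25e-07, edgeR QL test). The LIM factors *Lhx4* (0.87), *Isl2* (0.69) and *Lhx3* (0.63) rose as well, as did *Cntfr* (0.85), the receptor of a cytokine that raises choline acetyltransferase in MNs. *Isl1*, the partner of LHX3 at cholinergic genes, had WT counts of 1971 and 2133, KO counts of 2704 and 2044 and no call (-0.19, adjusted p = 0.0768), but was called as lower without the second KO library (-0.25, adjusted p = 0.00631) and with the pan-neuronal scaling (-0.50, 7.84e-06). *Rest*, which silences neuronal genes outside neurons, fell by 0.61 (adjusted p = 0.000515, edgeR QL test), from 387 and 479 counts to 470 and 289. Per 100 counts of *Isl1*, *Isl2*, *Lhx3*, *Lhx4* and *Mnx1* together, *Chat* had 7.48 and 7.16 counts in WT against 10 and 11 in *Patz1* KO, and *Bche* 9.20 and 10.5 against 4.56 and 5.36.

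Among the MN transcription factors as a group, 5 of 12 were higher, 5 lower and 2 not called (41.7% each way). The shares over all genes tested were 24.1% higher and 23.8% lower. *Foxp1*, a factor of limb and other columns of MNs, fell by 1.05 and the nuclear receptor *Nr2f2* by 1.00 on the log2 scale. Of 12 tested markers of other cholinergic neuron types, 2 were higher (16.7%) and 4 lower (33.3%), with a median of 0.01. *Rgs4* rose by 1.45 and *Ret* by 0.55, and *Tbx2* fell by 1.51. Of 10 tested markers of other transmitters, 5 were higher and 0 lower, with *Slc32a1*, the vesicular transporter of GABA and glycine, at 8 and 2 counts (WT) against 83 and 51 (KO). *Slc6a5*, the glycine transporter of the nerve ending, and *Gad1*, which makes GABA, rose by 3.00 and 2.28. Their levels stayed low beside the cholinergic genes, with 3.23 CPM or less as the *Patz1* KO means of these 3 genes. Not all markers of the list were so low. *Slc18a2*, also called as higher (0.29), had group means of 30.6 CPM in WT and 37.6 in *Patz1* KO.

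Genes that supply choline and acetyl-CoA rose in part. Of 19 such genes tested, 9 were higher, 1 lower and 9 not called, with a median log2 fold change of 0.27. That is 47.4% higher and 5.3% lower, against 24.1% and 23.8% of all genes tested. *Pdha1*, a subunit of the enzyme that turns pyruvate into acetyl-CoA, went from 1652 and 1714 counts to 5451 and 3781 (log2 fold change 1.04, adjusted p = 2.81e-08, edgeR QL test). *Slc44a5*, of the choline transporter-like family, rose by 0.91 and *Acss2*, which makes acetyl-CoA from acetate, by 0.86. *Slc44a3* of the same family was the 1 gene that fell (-2.07), at 26 and 25 counts against 10 and 6.

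Receptors for acetylcholine showed no common direction. Of 16 nicotinic receptor subunits, 8 passed the filter, of which 1 was higher, 3 were lower and 4 were not called. The median log2 fold change was -0.04. The called shares were 12.5% higher and 37.5% lower, against 24.1% and 23.8% of all genes tested. *Chrna3* and *Chrnb4*, which pair in the receptor of autonomic ganglia, went from 272 and 238 to 268 and 146 counts (-0.73) and from 60 and 58 to 61 and 30 counts (-0.80). *Chrna1* of the muscle receptor fell from 27 and 40 counts to 31 and 16 (-0.93), and *Chrna5* was the 1 subunit that rose (0.47, adjusted p = 0.0483, edgeR QL test). With DESeq2's Wald test, and without either WT library, 1 subunit was called in place of 4. The subunits with the highest CPM, *Chrnb2* and *Chrna4*, which form the main receptor of the brain, had log2 fold changes of 0.13 (adjusted p = 0.307) and -0.02 (0.88).

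The muscarinic receptor gene *Chrm2* rose from 25 and 16 counts to 135 and 80 (log2 fold change 1.96, adjusted p = 3.06e-05, edgeR QL test), and the other 2 tested, *Chrm3* (-0.65, adjusted p = 0.19) and *Chrm4* (-0.09, 0.788), were not called. Of 6 tested genes for proteins that fold or modulate nicotinic receptors, 4 were higher (66.7%) and 0 lower. The shares over all genes tested were 24.1% higher and 23.8% lower. *Ly6h* went from 408 and 394 counts to 1901 and 1286 (1.57), *Tmem35*, the chaperone NACHO, rose by 0.71, and the chaperone *Ric3* by 0.42 (0.11 and not called with the pan-neuronal scaling). Of 5 tested genes for esterase anchors and organizers of the neuromuscular junction, 2 were higher and 2 lower (40.0% each way). *Agrn*, through which a nerve gathers receptors on muscle, rose by 0.44 (0.14 and not called with the pan-neuronal scaling), while its receptor *Lrp4* fell by 1.09 and *Hspg2*, a matrix proteoglycan, by 0.47. *Colq*, the collagen tail that anchors acetylcholinesterase at the junction, had 3 or fewer counts in every library.

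**Figure D5:**
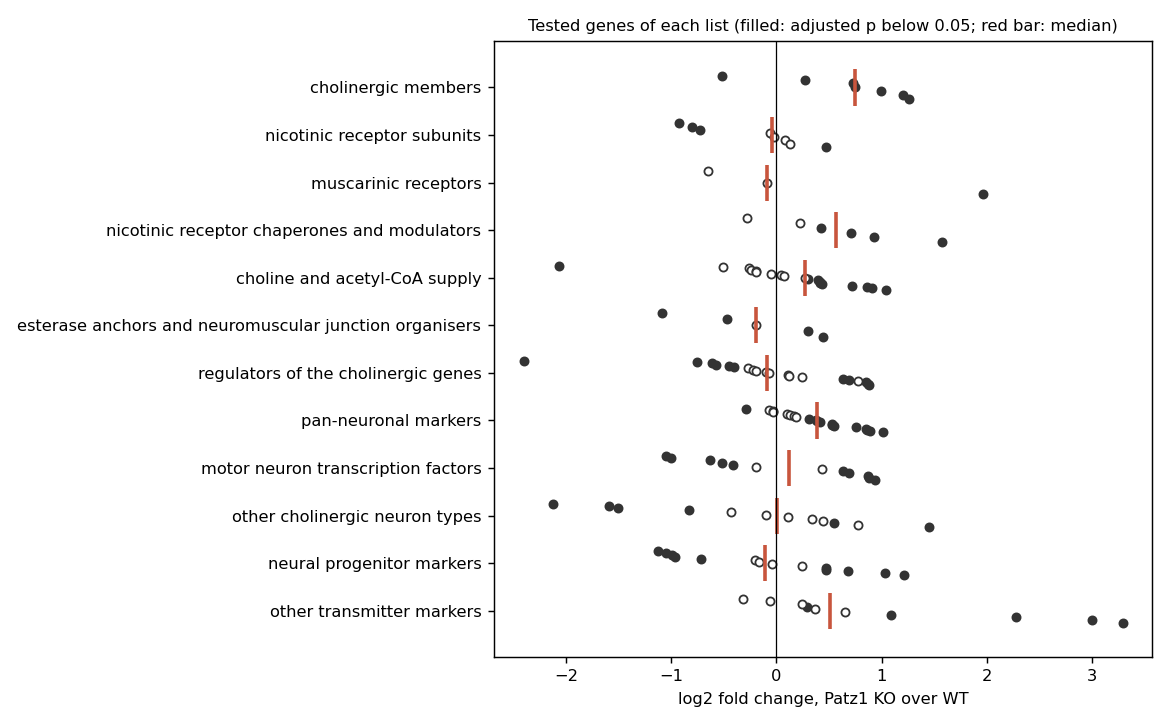
log2 fold change (*Patz1* KO over WT) of each tested gene in 12 gene lists, filled where the adjusted p was below 0.05, with the median of each list in red. The cholinergic genes have a median of 0.75, the pan-neuronal markers of 0.38, and nicotinic receptor subunits of -0.04.

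Markers listed for other cell types changed along with the cholinergic genes. A marker can be shared by several cell types, so these lists do not measure the share of any cell type. Of 14 neural progenitor markers, 5 were higher and 5 lower (35.7% each way), against 24.1% and 23.8% of all genes tested. The proliferation genes *Mki67* (-1.13) and *Top2a* (-0.96) and the Notch target *Hes5* (-0.99) fell, while *Nkx2-2* (1.21), *Sox1* (1.03) and *Fabp7* (0.68) rose. The summed level of all 14 markers was 3221 and 3186 CPM in WT and 2696 and 2740 in *Patz1* KO. Of 10 tested endoderm markers 9 were lower, with the smallest p values for *Foxa2* (-2.35), *Foxa1* (-2.86) and *Cubn* (-2.92) and the largest falls for *Gata6* (-3.55) and *Gata4* (-3.49), and the summed level went from 67.6 and 77.1 CPM to 12.1 and 13.7. Of 8 tested mesoderm and muscle markers 4 were lower, among them *Col1a1* (-2.18), *Twist1* (-2.63) and *Prrx1* (-2.61), with 29.1 and 31.3 CPM in sum against 9.44 and 9.47. Of 9 tested glial markers 5 were higher (55.6%) and 2 lower (22.2%): *Slc1a3* rose by 1.25 and *Pdgfra* fell by 3.96. The astrocyte gene *Gfap* had 1 count or fewer in every library. *Aldh1l1*, of the same list, rose from 25 and 17 counts to 276 and 101 (2.69). The summed glial level was 183 and 198 CPM against 257 and 238. The part of these cell types in the fall of *Bche* or the rise of *Chat*, *Slc18a3*, *Slc5a7*, *Ache* and *Prima1* was not tested.

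The genes most like *Chat* in pattern, by the root mean square distance of centred log2 CPM over the 4 libraries and among 10893 genes with a mean of at least 100 counts, were *Cadm4* (distance 0.0171) and *Fbxo25* (0.0183). For *Slc18a3* they were *Repin1* (0.00608) and *Ptms* (0.00656). With only 4 libraries this is a description. Among the cholinergic genes, *Ache* and *Prima1* were closest to *Chat* (0.12 each), *Slc18a3* (0.13) and *Slc5a7* (0.17) followed, and *Slc10a4* (0.36) and *Bche* (0.75) were farthest.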

How the data were processed

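RNA-seq was analysed from 2 WT and 2 *Patz1* KO libraries of cervical MNs. Per the labels, stranded libraries were made from total RNA. The deposited values are raw counts per gene symbol, which the authors made by mapping reads to mm10. The submitters' processing notes list TopHat2 2.1.1, Bowtie2 2.3.1 and featureCounts 1.6.2, while the annotation and strand setting are not given in the sources used here. The level of 3 counts given as a detection limit covers counting error only, as reads carry no molecular identifiers. The fold intervals rest on the spread between libraries, moderated for each gene toward the trend over all genes tested.

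Genes were filtered by filterByExpr (minimum count 10), and the counts of the genes kept were then scaled by TMM. All 14269 were tested with edgeR 4.0.16 (glmQLFit and glmQLFTest, R 4.3.3) with Benjamini-Hochberg adjustment, without covariates. SE is the absolute log2 fold change over the square root of F. The study's own method, DESeq2's Wald test (1.42.0), other scalings, other filters, robust estimation, a replicate block and fits leaving out each library were run as alternatives. The test was tried on simulated data with the same noise level for every gene. It recovered 89.9% of changes of 1 on the log2 scale and 45.5% of changes of 0.5. In the simulation 135 genes were called, against 6837 here, so it does not check the test where many genes change. Positions, lengths and overlaps came from GENCODE M21 on GRCm38, the assembly of mm10, and promoter windows from RefSeq (GRCm38.p6), found for all 7 genes.

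The members, lists and motifs were chosen with earlier results of these data known, and the lists were drawn from general knowledge. The rule for named genes took the members, *Patz1*, *Isl1*, *Lhx3*, *Mnx1*, *Rest*, from each list the 3 lowest p values and the 2 genes closest in pattern to *Chat* and *Slc18a3*; a few genes that the rule names are not reported here. *Chrna5*, *Chrnb2*, *Chrna4*, *Slc44a3*, *Snap25*, *Tubb3*, *Slc18a2*, *Isl2*, *Colq*, *Myod1*, *Myh3*, *Nkx2-2*, *Sox1*, *Fabp7*, *Gata4*, *Gata6*, *Gfap* and *Aldh1l1* were named after their values were seen.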

Additional observations from a re-analysis of the deposited data

How the results depend on the processing

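*Chat*, *Slc18a3*, *Slc5a7*, *Ache*, *Prima1* and *Bche* kept their direction and were called under all 13 alternatives, and so was *Patz1*. *Slc10a4* was not called with library size alone (0.24), DESeq2's Wald test (0.28) or TMM over the pan-neuronal list (-0.04, reversed, where the median of all genes is -0.31), and its log2 fold change lay between 0.19 and 0.36 in fits without 1 library, with calls lost as given above. In those fits the lone library of a group is assumed to vary like the others. Over all genes, 4521 to 7816 genes were called when a library was left out, the lowest without the second WT library, against 6837. The called nicotinic subunits numbered 1 with DESeq2's Wald test and 1 to 3 when a library was left out. Leaving out a library gave 7 to 16 pan-neuronal, 4 to 5 glial and 3 to 5 other transmitter markers, DESeq2's Wald test gave 4 glial and 3 other transmitter markers, the pan-neuronal scaling called 2 muscarinic receptors, and 10 counts in every library left 4 endoderm and 2 other transmitter markers called, as fewer genes were tested. Of named genes that were not called, the sign turned without the first *Patz1* KO library (*Chrm4* 0.17, *Chrnb2* -0.03), for *Chrnb2* also with the pan-neuronal scaling (-0.18), and for *Chrna4* with no filter (0), without the first WT library (0.11) and without the second *Patz1* KO library (0.03). Fits without 1 library went from -0.33 to 0.17 for *Chrm4*, from -0.03 to 0.28 for *Chrnb2* and from -0.13 to 0.11 for *Chrna4*. The cause was not tested. The replicate block gave 0.99 for *Chat* and 7363 genes over all, and changed no call of the 7 genes. The labels do not say that same-numbered libraries share anything beyond the number. Their deviations correlated at 0.0304, but with 2 libraries per group this cannot show whether they do.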
